A study of Mus musculus with 170 samples.

Results

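Haematopoietic stem cells (HSC) and B cells sorted from the bone marrow of young mice were compared across all genes. The comparison used 9 of the 170 libraries of a study of 23 cell types at 2 ages. HSC from mice aged 2 months gave 4 libraries, and B cells from mice of the same age gave 5. Every mouse was on a C57/Bl6 background, with no treatment named, and each library pooled marrow cells of 5 animals that had been sorted by flow cytometry. The gates of the sort and the sex of the animals are not given in the sources used here. A second comparison, of 7 HSC and 4 B cell libraries from mice aged 22 to 24 months, was used only to see whether the differences recurred at that age. Because a library is a pool, a p-value here measures the spread between pools. In bulk libraries, fewer cells of a type and less RNA per cell cannot be told apart.

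HSC sit at the top of the blood hierarchy. They divide rarely, depend on cytokine receptors such as Kit, and are held in their state by transcription factors that include Mecom, Hlf, Meis1 and the Hox proteins. B cells are made in the same marrow from these cells through pro-B and pre-B stages. In those stages the Rag proteins cut the immunoglobulin genes, a surrogate light chain made by Vpreb1 and Igll1 pairs with the new heavy chain in the pre-B receptor, and the factors Ebf1 and Pax5 fix the lineage.

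Levels are given as CPM, the count of a gene divided by the total count of its library and scaled to a total of 1000000. Total counts ran from 1337991 to 1974133 in the HSC libraries and from 2030252 to 2746591 in the B cell libraries. Differences are log2 fold changes, HSC minus B cells, with their standard error (SE), from edgeR's quasi-likelihood test with TMM scaling, and a gene was called at a Benjamini-Hochberg adjusted p under 0.05. TMM scaling sets the median gene at 0.00. On library totals alone the same median was 0.23, so a ratio of CPM reads higher in HSC than the tested difference by about that amount. Coordinates are those of GENCODE M21 on GRCm38.

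Several libraries held transcripts that their labels do not account for. HSC library 1 had 44.1 CPM of the Y-linked gene Ddx3y, against 0 to 0.643 CPM in the other HSC libraries, and its 4 Y-linked genes summed to 91.7 CPM, against 1.62 to 5.14 CPM. HSC library 2 had the highest sums of the HSC libraries over several lists of other marrow cells, but not over the T and NK, dendritic or plasma cell lists. Its 12 neutrophil markers summed to 448 CPM, against 54.5 to 143 CPM in the other HSC libraries, its 8 mast cell and basophil markers to 148 CPM, against 13 to 33.4 CPM, and its 9 B cell markers other than Cd79b to 62 CPM, against 14 to 21.9 CPM. All B cell libraries held brain endothelial transcripts, described further below. Without HSC library 1 there were 3501 genes called higher in HSC and 3440 called higher in B cells, and without HSC library 2 there were 3607 and 3517.

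Of 11941 genes tested, 3677 (30.8%) were called higher in HSC and 3577 (30.0%) higher in B cells. With library totals alone as the scaling the counts were 4570 and 2647. A difference of at least 4-fold together with the call was found for 1130 genes higher in HSC (9.46%) and for 918 genes higher in B cells (7.69%). The CPM of the HSC libraries and the CPM of the B cell libraries did not overlap for 6054 genes, 50.7% of those tested. Of the genes tested, 985 (8.25%) had a 95% interval of the log2 fold change within 0.5 on either side of 0. Every share of a gene list below is to be read against these shares, since a list in which about 3 in 10 genes are called in a direction is like the whole table. Members of a list that passed the filter on low counts only through the group where they were high had to differ. A count of called members thus describes the tested members alone.

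**Figure D1:**
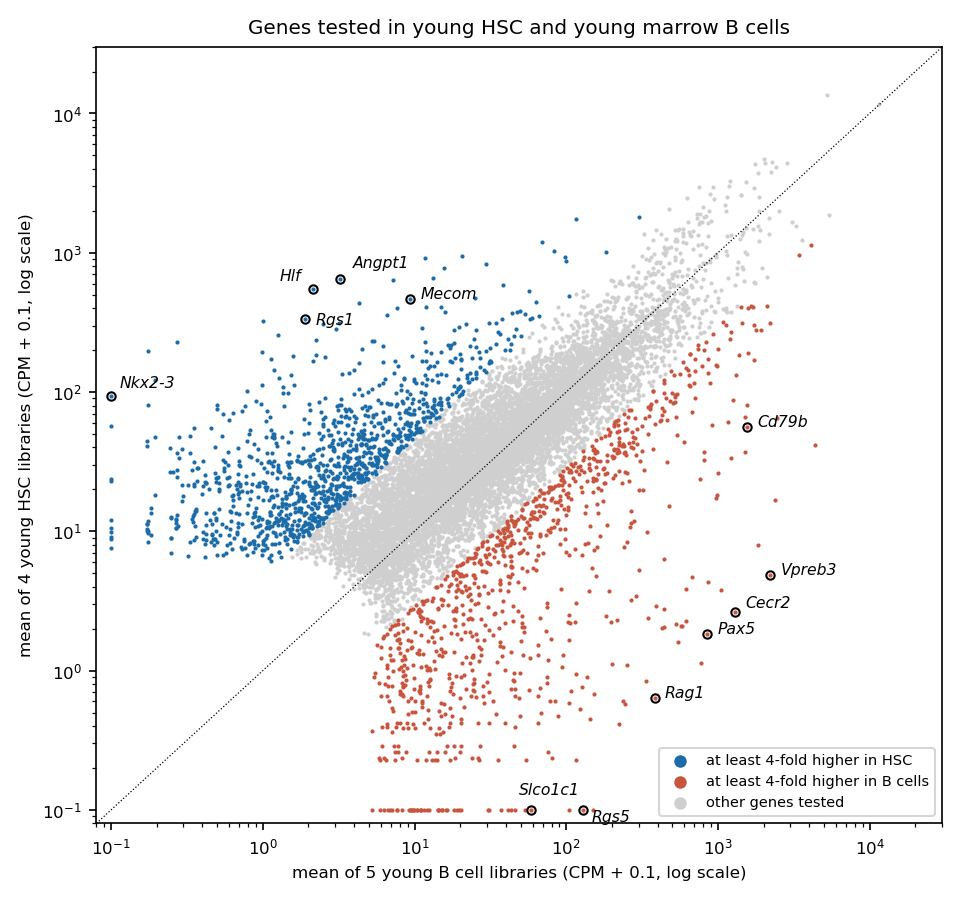
Mean level in the 4 young HSC libraries (vertical axis) against the mean in the 5 young B cell libraries (horizontal axis), both in CPM + 0.1 on log scales, for the 11941 genes tested. The dotted line marks equal CPM. The 1130 genes at least 4-fold higher in HSC are blue and lie above it, the 918 at least 4-fold higher in B cells are red and lie below it, and circled genes are described in the text.

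The marker chosen for HSC was Mecom (chr 3, 29951296 to 30548008), a zinc finger transcription factor needed for stem cell maintenance. It had 465, 559, 342 and 506 CPM in the 4 HSC libraries, against 7.28, 9.97, 9.85, 8.51 and 10.4 CPM in the 5 B cell libraries. The groups did not overlap, and the log2 fold change was 5.43 ± 0.17 (SE). The marker chosen for B cells was Cd79b (chr 11, 106311341 to 106314762), the beta signalling chain of the B cell receptor. It had 43.6, 78.5, 52.4 and 50.8 CPM in HSC libraries, against 1368, 1778, 1557, 1556 and 1520 CPM in B cell libraries, a log2 fold change of -5.03 ± 0.17. Its level in HSC was far from 0, unlike that of its partner chain Cd79a (chr 7, 24897381 to 24902197), which had 0, 0.747, 0 and 0.643 CPM in HSC libraries and 128, 208, 129.5, 130.5 and 126 CPM in B cell libraries. The 2 chains form a dimer on the cell surface, and in the HSC libraries only the beta chain was measured above 1 CPM. As both markers were chosen to tell these cells apart, they are given as a description.

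The other marker genes followed the labels. All 10 HSC markers were called higher in HSC libraries, with the smallest log2 fold change for Tek (0.59 ± 0.18), and their sum was 2495 to 3051 CPM in HSC libraries, against 62.7 to 88.6 CPM in B cell libraries. All 10 B cell markers were called lower in HSC libraries, from Cd22 (-9.67 ± 0.57) to Cd79b. The 9 other than Cd79b summed to 14 to 62 CPM in HSC libraries and to 6286 to 6666 CPM in B cell libraries.

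**Figure D2:**
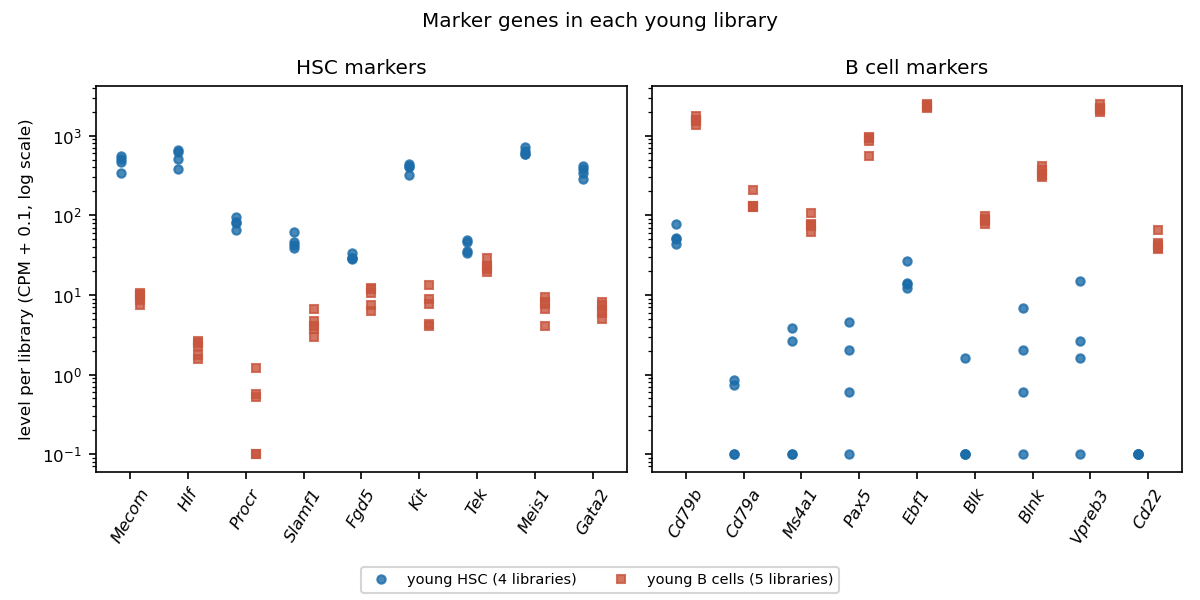
Level of 9 of the 10 HSC marker genes (left panel) and 9 of the 10 B cell marker genes (right panel) in each young library, in CPM + 0.1 on a log scale. Blue circles are the 4 HSC libraries and red squares the 5 B cell libraries; the groups are closest for Tek, at 33.5 to 49.3 CPM in HSC libraries and 19.3 to 29.2 CPM in B cell libraries.

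A list of stem cell transcription factors also held cofactors and the RNA binding protein Msi2. Of its 20 genes, 19 were called higher in HSC libraries, 16 of them at least 4-fold, and 1, Sox18, lower. The median log2 fold change of the list was 4.39. Nkx2-3 (chr 19, 43612325 to 43615892), a homeobox factor, had the highest log2 fold change in HSC of all genes that met the rule for naming. It had 97.3, 97.9, 73.4 and 105 CPM in HSC libraries and no count in any B cell library. Taking 3 counts over the B cell group as a floor, it was at least 371-fold higher in HSC. No other young cell type of the study averaged above 0.392 CPM.

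Hlf (chr 11, 90336536 to 90390895), a leucine zipper factor that marks HSC, had 513, 657, 387 and 627 CPM in HSC libraries, against 2.55, 2.22, 1.48, 2.36 and 1.66 CPM in B cell libraries (log2 fold change 7.77 ± 0.21, adjusted p = 1.62e-12). Meis1, the partner of Hox proteins on DNA, averaged 639 ± 62 CPM in HSC libraries and 7.08 ± 1.99 CPM in B cell libraries (SD, n = 4 and 5; 6.24 ± 0.17, adjusted p = 1.62e-12). Gata2 and Tal1, factors that work together in early blood progenitors, had log2 fold changes of 5.54 ± 0.17 and 6.26 ± 0.27. Their bridging partner Lmo2 had 1508, 695, 565 and 1053 CPM in HSC libraries, against 17.5 to 25.7 CPM in B cell libraries. Lmo2 thus varied more between the HSC pools than Meis1 did, and the groups still did not overlap.

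The smaller differences of the list were of other genes. Msi2, an RNA binding protein, was higher in HSC by 0.71 ± 0.12, adjusted p = 0.000109, and Zfpm1, a cofactor of Gata1, by 0.68 ± 0.23, adjusted p = 0.0205. Sox18, an endothelial factor, had 2.03 to 7.02 CPM in HSC libraries, against 4.43 to 8.12 CPM in B cell libraries (-1.01 ± 0.38, adjusted p = 0.0325), and 212 CPM in young brain endothelial libraries, whose part in its level was not tested. The calls of 2 of these genes rest on single libraries. That of Sox18 was also lost without the filter on low counts, with the replicate number as a block and on library totals alone. Under each of these settings no member of the list was called lower. For Zfpm1, without HSC library 1 or 2 or B cell library 3 its adjusted p was 0.0548 to 0.0987, and for Sox18, without HSC library 1, 2 or 4 or B cell library 2, 4 or 5 its adjusted p was 0.0501 to 0.12.

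The Hox genes, which code for homeobox factors and lie in clusters, were measured in part. In the Hoxa cluster on chr 6, 4 of 11 genes had enough counts to be tested, and all 4 were called higher in HSC. Hoxa9 had 156, 161, 194 and 179 CPM in HSC libraries, against 1.46, 1.11, 0, 0.945 and 1.66 CPM in B cell libraries (7.02 ± 0.24, adjusted p = 5.69e-12). Hoxa10 (chr 6, 52231197 to 52240854) had 106, 69.5, 64.8 and 81 CPM in HSC libraries, against 1 count in all in the B cell libraries, a ratio of 979 (95% interval 175 to 38753). Hoxa5 and Hoxa7 had log2 fold changes of 5.22 ± 0.34 and 5.02 ± 0.36, and Hoxa11 had no count in either group. In the Hoxb cluster 3 of 10 were tested. Hoxb4 had 25.4 to 44.6 CPM in HSC libraries, against 2.18 to 7.47 CPM in B cell libraries (2.72 ± 0.30, adjusted p = 1.24e-06). Hoxb5 had 10.5 to 25.7 CPM in HSC libraries, against 0 to 3.69 CPM in B cell libraries (4.26 ± 0.69, adjusted p = 6.52e-05), and Hoxb2 did not pass (0.81 ± 0.38, adjusted p = 0.0806), although without HSC library 3 its adjusted p was 0.0491. A single B cell library held each of the few counts that set the scale of some folds: without B cell library 2 the log2 fold change was 8.14 for Hoxb5 and 10.19 for Hoxa10. Genes that passed the filter only through HSC had to differ, so these counts describe the tested genes and not the clusters.

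The stretches before the starts of 3 of these factors are shown with CpG marked. CpG, a C followed by a G on the same strand, is the site at which DNA is methylated. The stretches are to be set beside the windows of the pre-B receptor genes printed further below. Promoter sequences are RefSeq's on GRCm38.p6, the 250 bases before the first listed start of each gene, 5′ to 3′ on the gene's strand, with each CpG in capitals. The Mecom start is 1 of several of that gene and lies inside it.
Mecom, chr3:30509760-30510009, strand minus: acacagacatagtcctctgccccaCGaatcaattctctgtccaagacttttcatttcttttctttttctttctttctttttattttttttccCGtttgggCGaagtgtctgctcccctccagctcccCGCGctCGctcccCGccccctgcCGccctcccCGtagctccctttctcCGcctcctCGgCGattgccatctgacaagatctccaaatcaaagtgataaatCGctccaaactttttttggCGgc
Hlf, chr11:90390918-90391167, strand minus: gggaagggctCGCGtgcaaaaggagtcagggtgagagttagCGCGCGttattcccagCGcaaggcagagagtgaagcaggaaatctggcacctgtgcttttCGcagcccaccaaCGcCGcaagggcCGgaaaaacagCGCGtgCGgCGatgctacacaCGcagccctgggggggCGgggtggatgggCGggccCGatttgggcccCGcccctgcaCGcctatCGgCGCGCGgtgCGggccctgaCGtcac
Nkx2-3, chr19:43612075-43612324, strand plus: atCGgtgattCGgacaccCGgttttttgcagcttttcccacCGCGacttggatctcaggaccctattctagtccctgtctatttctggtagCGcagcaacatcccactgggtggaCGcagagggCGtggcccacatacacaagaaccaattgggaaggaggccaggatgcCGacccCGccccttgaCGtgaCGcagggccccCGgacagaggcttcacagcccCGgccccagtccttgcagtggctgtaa
These windows hold 14 CpG for Mecom, 26 for Hlf and 14 for Nkx2-3. Over the 300 bases from 250 before to 50 after the start, the median was 15.5 CpG for the 16 of 20 stem cell factors with an entry, against 7 CpG for all 27025 genes of the sequence table and 24 CpG for the 788 with an entry of the 985 genes that were alike in both cell types. The factors thus lay above the table as a whole, which includes genes that were not tested, and below the genes alike in both. The genes tested had a median of 21 CpG, higher than that of the factors. An entry was found for only 72.3% of the genes tested, so their median is given as a description. The 12 genes of the pre-B receptor and of V(D)J recombination, all with an entry, had a median of 3 CpG.

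Receptors and surface proteins by which HSC are sorted or sense their surroundings were higher in HSC in 17 of 18 members tested, with a median of 2.00. Kit, the receptor of stem cell factor, had 411, 445, 325 and 419 CPM in HSC libraries, against 4, 13.3, 8.87, 7.56 and 4.15 CPM in B cell libraries (5.49 ± 0.24, adjusted p = 5.56e-11). Procr, the protein C receptor known as EPCR, had 65 to 95 CPM in HSC libraries, against 0 to 1.09 CPM in B cell libraries (7.20 ± 0.36, adjusted p = 1.86e-10).

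The SLAM proteins Slamf1 (CD150) and Cd48 are used together to sort HSC, which carry the first and lack the second. Slamf1 had 45.6, 42.6, 38.3 and 61.7 CPM in HSC libraries, against 3.64, 6.65, 3.94, 2.84 and 4.57 CPM in B cell libraries (3.18 ± 0.24, adjusted p = 2.41e-08). Cd48 had 2.03, 16.4, 5.94 and 7.72 CPM in HSC libraries, against 110.0, 144, 140.4, 145 and 130.0 CPM in B cell libraries (-4.39 ± 0.30, adjusted p = 6.22e-09). Neither gene overlapped between the groups, and they lay on opposite sides. Cd34 averaged 151 ± 25.7 CPM in HSC libraries and 34.8 ± 9.81 CPM in B cell libraries (SD; 1.89 ± 0.18, adjusted p = 2.86e-07). Flt3, the receptor of multipotent and lymphoid progenitors, was low, at 7.6 to 18 CPM in HSC libraries and 0 to 4.8 CPM in B cell libraries (2.13 ± 0.51, adjusted p = 0.00194). Ifngr1, the interferon gamma receptor chain, was the member called lower in HSC, at 112 to 162 CPM in HSC libraries, against 109 to 254 CPM in B cell libraries (-0.62 ± 0.22, adjusted p = 0.0227), and without HSC library 2 or 4 or B cell library 3 its adjusted p was 0.0551 to 0.0642. Its call was also lost on library totals alone and with the spread from 4 groups. Without B cell library 1 the value of Procr was 7.97. Thy1 and Neo1 had too few counts to be tested.

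Some members of this list are also genes of endothelium. Ly6a, the Sca-1 antigen, had 141, 135, 139 and 185 CPM in HSC libraries, against 101, 86, 83.2, 75.2 and 78.9 CPM in B cell libraries (0.59 ± 0.13, adjusted p = 0.00092). Tek, an angiopoietin receptor, had 35.5, 49.3, 33.5 and 46.3 CPM in HSC libraries, against 19.3, 29.2, 23.1, 23.2 and 21.2 CPM in B cell libraries (0.59 ± 0.18, adjusted p = 0.0101). The young brain endothelial libraries averaged 1793 CPM of Ly6a and 508 CPM of Tek. Esam, Robo4 and Eng, surface proteins of endothelium and HSC, had log2 fold changes of 1.76 ± 0.16, 1.48 ± 0.21 and 1.05 ± 0.20. The part of brain endothelial transcripts in the B cell levels of these 5 genes was not tested.

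Genes used to report or score HSC were called higher in 17 of 18 members, with a median of 4.14. Angpt1, the angiopoietin that binds Tek, had 635, 747, 629.6 and 591 CPM in HSC libraries, against 2.18, 7.02, 3.94, 0 and 2.49 CPM in B cell libraries (7.41 ± 0.32, adjusted p = 4.76e-11). Trpc6, a calcium channel, had 66.4, 50.8, 50.2 and 59.8 CPM in HSC libraries and no count in B cell libraries, at least 229-fold higher. Pdzk1ip1, the small membrane protein whose locus drives an HSC reporter, had 302 to 365 CPM in HSC libraries, against 0 to 2.18 CPM in B cell libraries (8.05 ± 0.31, adjusted p = 1.6e-11). The transmembrane proteins Ifitm1 and Ifitm3 had log2 fold changes of 6.06 ± 0.21 and 3.89 ± 0.14, and Apoe, an apolipoprotein, 3.02 ± 0.12. The list's last member, Socs2, a brake on cytokine signalling, did not pass, at 55.1 to 119.5 CPM in HSC libraries and 55.4 to 114 CPM in B cell libraries (-0.44 ± 0.24, adjusted p = 0.135), although without HSC library 1 or B cell library 2 its adjusted p was 0.0157 to 0.0214.

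The 15 highest log2 fold changes in HSC, among called genes with at least 20 CPM and no overlap, ran from 7.21 to 10.46. For 10 of them the B cell group held 3 counts or fewer, so the fitted value is not a bound and the count ratios are the safer guide. In 12 of the 15 no other young cell type of the study, of 21, had as high a mean. Beside genes described above they include Rab38, Sdsl, Lhcgr, Pglyrp2, Muc13, Cela1, P2rx1 and Rgs1. Rab38 (chr 7, 88430273 to 88491572), a small GTPase of lysosome-related organelles, had 185, 179, 226 and 194 CPM in HSC libraries, against 1 count in all in B cell libraries, a ratio of 2370 (95% interval 425 to 93672). Lhcgr, the receptor of luteinizing hormone, had 37, 48.6, 41 and 51.4 CPM in HSC libraries, against 1 count, a ratio of 525 (95% interval 93.6 to 20823). Muc13, a membrane mucin, had 245, 277, 252 and 246 CPM in HSC libraries, against 0, 4.43, 0.985, 0 and 0.415 CPM in B cell libraries (7.40 ± 0.37, adjusted p = 2.35e-10). Rgs1, a regulator of G protein signalling, had 245, 256, 703 and 135 CPM in HSC libraries, against 3.28, 2.59, 0.985, 0.473 and 1.66 CPM in B cell libraries (7.21 ± 0.53, adjusted p = 1.45e-08), with HSC library 3 far above the others. Without that library its value was 6.53, and without B cell library 2 that of Muc13 was 9.13 and that of Rab38 11.47.

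Megakaryocyte and platelet genes, several of which HSC are known to carry, were called higher in HSC in all 11 members tested, of 16; the other 5 had too few counts, and those near 0 in B cells passed the filter only through HSC and so had to differ. The adhesion receptor chain Itga2b (CD41) had 139.8, 138, 112 and 114 CPM in HSC libraries, against 0.728, 0, 0.493, 4.25 and 0.415 CPM in B cell libraries (6.55 ± 0.38, adjusted p = 1.09e-09). Pf4, a platelet chemokine, had 311, 289, 269 and 378 CPM in HSC libraries, against 0, 8.12, 1.97, 5.2 and 0 CPM in B cell libraries (6.41 ± 0.43, adjusted p = 6.21e-09). Gp9, a subunit of the receptor of von Willebrand factor, averaged 70.6 ± 13.6 CPM in HSC libraries and 0.536 ± 0.613 CPM in B cell libraries (SD; 6.76 ± 0.39, adjusted p = 1.03e-09). The few B cell counts of these genes were uneven between libraries, and without B cell library 4 the value of Itga2b was 7.88, without B cell library 2 that of Pf4 7.26 and without B cell library 3 that of Gp9 7.41. Vwf itself had 56.2 to 86.1 CPM in HSC libraries, against 8.98 to 15.8 CPM in B cell libraries (2.18 ± 0.20, adjusted p = 1.42e-07), and 127 CPM in young brain endothelial libraries. The late genes Tubb1, of platelet tubulin, and Gp6, of the collagen receptor, had no count in any HSC library.

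Genes of other marrow lineages were measured in both groups. All 6 tested members of 10 granule and progenitor genes of granulocytes were called higher in HSC, with a median of 2.95. The others had too few counts, and members near 0 in B cells passed the filter only through HSC and so had to differ. Prtn3, the protease proteinase 3, had 178, 179, 198 and 184 CPM in HSC libraries, against 0.728, 2.22, 1.97, 3.31 and 2.49 CPM in B cell libraries (6.20 ± 0.21, adjusted p = 4.56e-12), so it did not follow library 2. Mpo, myeloperoxidase, had 19.2, 135, 14.6 and 52.1 CPM in HSC libraries, against 11.3, 7.76, 7.39, 9.45 and 5.81 CPM in B cell libraries (2.43 ± 0.52, adjusted p = 0.000833), with its highest HSC value in library 2, without which its value was 1.52. Car2, carbonic anhydrase 2, had 1603, 1792, 1902 and 1721 CPM in HSC libraries, against 117, 119, 136, 102 and 109 CPM in B cell libraries (3.68 ± 0.12, adjusted p = 3.88e-12). Gata1, the erythroid and megakaryocyte factor, had 32.4 to 36 CPM in HSC libraries, against 0 to 1.97 CPM in B cell libraries (5.31 ± 0.46, adjusted p = 1e-07; 5.99 without B cell library 3), and Nkg7, a granule protein of killer cells, 72.7 to 103 CPM in HSC libraries, against 1.46 to 3.74 CPM in B cell libraries (4.96 ± 0.24, adjusted p = 1.31e-10). Of the 15 markers of T and NK cells, 4 were tested, of which 3, Nkg7 among them, were called at least 4-fold higher in HSC and 1 lower, and the list summed to 156 to 191 CPM in HSC libraries and 47.6 to 60.8 CPM in B cell libraries. Of that list, the T cell genes Cd3e and Cd8a were at 0 to 0.695 CPM on average in HSC libraries. Nkg7, near 0 in B cells, also passed the filter only through HSC. The part of other cells in the HSC values was not tested.

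The late neutrophil genes ran the other way. All 8 tested, of 12, were called lower in HSC, with a median of -2.79. The others had too few counts, and tested members that passed the filter only through B cells had to differ. S100a8, a calcium binding protein of neutrophils, had 39.5, 173, 21.6 and 61.7 CPM in HSC libraries, against 272, 269, 249, 189 and 226 CPM in B cell libraries (-1.98 ± 0.39, adjusted p = 0.000435). Without HSC library 2 its value was -2.79. The sums over the list were 54.5 to 448 CPM in HSC libraries and 579 to 862 CPM in B cell libraries. The 4 globin genes Hba-a1, Hba-a2, Hbb-bt and Hbb-bs of red cells took 0.0211% to 0.261% of counts in HSC libraries and 0.139% to 0.295% in B cell libraries, and with all libraries and the main settings Hbb-bs alone was called (-1.39 ± 0.50, adjusted p = 0.0245). That call depends on the settings: DESeq2 and library totals alone did not make it, and without HSC library 1 or 4 or B cell library 3 its adjusted p was 0.0583 to 0.075. Without the filter on low counts, all 4 globin genes were called lower in HSC. Without HSC library 2, which had the most globin of the HSC libraries, Hbb-bs had -2.40, Hba-a1 had -2.19, Hba-a2 had -2.17 and Hbb-bt had -1.46, and all 4 were called lower in HSC. All 6 adipocyte markers together summed to at most 5.98 CPM in any library of either group.

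Genes of cell division were low in HSC. Of 34 members tested, 30 were called lower in HSC, 21 of them at least 4-fold, with a median of -2.31. In the main fit none was called higher in HSC, nor by DESeq2, and 1 was at an unadjusted p under 0.05. On library totals alone, and with the replicate number as a block, 1, E2f1, was called higher. Mki67, the proliferation antigen Ki-67, had 140.3, 212, 128 and 136 CPM in HSC libraries, against 844, 851, 784, 639 and 786 CPM in B cell libraries (-2.58 ± 0.15, adjusted p = 1.19e-09). Ccna2, cyclin A2, had 27.9, 29.9, 30.2 and 19.9 CPM in HSC libraries, against 222, 184, 212, 225 and 279 CPM in B cell libraries (-3.28 ± 0.18, adjusted p = 4.94e-10). Rrm2, the inducible subunit of ribonucleotide reductase, differed most, at 50.8 to 99.3 CPM in HSC libraries, against 732 to 1817 CPM in B cell libraries (-4.76 ± 0.31, adjusted p = 4.77e-09). Ube2c, of the anaphase ubiquitin ligase, had a log2 fold change of -2.87 ± 0.12. Among the subunits of the replicative helicase, Mcm4 had -1.14 ± 0.11, adjusted p = 3.79e-07, but Mcm3 (-0.05 ± 0.15, adjusted p = 0.787) and Mcm6 (-0.20 ± 0.12, adjusted p = 0.169) did not pass. E2f1, a factor of S phase entry, had 0.66 ± 0.28, adjusted p = 0.0576 and did not pass either, although without HSC library 3 or B cell library 5 its adjusted p was 0.0311 to 0.0365.

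Inhibitors of the cell cycle were split. Of 16 genes, 4 were called higher in HSC and 8 lower. Cdkn1c, the inhibitor p57, which is expressed from the maternal allele and known from quiescent HSC, had 96.8, 66.5, 78.3 and 88.1 CPM in HSC libraries, against 9.83, 5.54, 9.36, 7.56 and 5.81 CPM in B cell libraries (3.21 ± 0.21, adjusted p = 3.98e-09). Its relative Cdkn1b, p27, had 295, 81.5, 116 and 268 CPM in HSC libraries, against 1562, 523, 2177, 2034 and 1594 CPM in B cell libraries (-3.30 ± 0.44, adjusted p = 1e-05). The pair thus lay on opposite sides. Cdkn1a, p21, did not pass, at 44.6, 31.4, 127 and 28.3 CPM in HSC libraries and 69.9, 86.8, 59.6, 60.5 and 63.9 CPM in B cell libraries (-0.43 ± 0.34, adjusted p = 0.284). HSC library 3 was the high one, and without it the value of Cdkn1a was -1.19 and the gene was called. Necdin, Ndn, had 40 to 60.4 CPM in HSC libraries, against 0 to 1.85 CPM in B cell libraries (5.73 ± 0.37, adjusted p = 3.6e-09; 6.41 without B cell library 2), and Txnip, a regulator of redox state and glucose uptake, was higher by 1.99 ± 0.13. The antiproliferative genes Btg1 (-3.05 ± 0.12) and Btg2 (-3.14 ± 0.29) and the factor Foxo1 (-2.87 ± 0.18) were called lower in HSC.

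Of 18 imprinted growth genes 11 were tested, 9 called higher in HSC and 1, Igf2r (-1.70 ± 0.35), lower. Members near 0 in B cells passed the filter only through HSC and so had to differ. Grb10, an adaptor of growth factor receptors, had 119.5, 104, 109.6 and 127 CPM in HSC libraries, against 4.73, 7.39, 5.42, 5.67 and 7.47 CPM in B cell libraries (3.99 ± 0.17, adjusted p = 3.31e-11). Meg3, a noncoding RNA, had 26.2 to 83.6 CPM in HSC libraries, against 1.25 to 4.43 CPM in B cell libraries (adjusted p = 4.91e-07). H19 was at 1.62 to 6.73 CPM in HSC libraries and 0 to 0.473 CPM in B cell libraries, too low to be tested.

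The enzymes that write, copy and erase DNA methylation differed gene by gene. The de novo methyltransferase Dnmt3b had 83.1, 82.2, 62.6 and 99 CPM in HSC libraries, against 13.1, 14.4, 5.42, 13.7 and 9.55 CPM in B cell libraries (2.61 ± 0.22, adjusted p = 6.12e-08), and Dnmt3a was higher by 0.34 ± 0.14, adjusted p = 0.0419. Uhrf1, which brings the maintenance enzyme to newly copied DNA, had 179, 98.7, 132 and 141 CPM in HSC libraries, against 888, 516, 970.3, 985 and 934 CPM in B cell libraries (-2.87 ± 0.23, adjusted p = 3.87e-08). The maintenance enzyme itself, Dnmt1, was lower by a small step (-0.43 ± 0.15, adjusted p = 0.0231). Of the Tet dioxygenases, Tet1 was called higher in HSC (1.54 ± 0.15) and Tet2 (-0.74 ± 0.21) and Tet3 (-0.41 ± 0.15) lower. On library totals alone, 2 of the 7 genes were called lower in HSC instead of 4. The smaller calls rest on single libraries and on the settings. Dnmt1 and Tet3 were not called on library totals alone, nor Dnmt3a without the filter on low counts. With the replicate number as a block, neither Dnmt3a nor Tet3 was called. For Dnmt1, without HSC library 3 or 4 or B cell library 1 its adjusted p was 0.0583 to 0.0848. For Dnmt3a, without HSC library 1, 2 or 4 or B cell library 1, 2, 4 or 5 its adjusted p was 0.0521 to 0.114. For Tet3, without HSC library 1, 3 or 4 or B cell library 1, 2 or 5 its adjusted p was 0.0508 to 0.0842.

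Ribosomal proteins were called higher in HSC in 29 of 30 members tested, with a median of 0.94 and no member at 4-fold. Their sum was 57976 to 65373 CPM in HSC libraries, against 24980 to 28965 CPM in B cell libraries. Rps24 had the largest log2 fold change of the list (1.75 ± 0.15, adjusted p = 6.94e-08) and Rps27 the smallest (0.21 ± 0.10, adjusted p = 0.074), although for Rps27 without HSC library 2 its adjusted p was 0.0357. Many ribosomal protein genes have near-identical processed copies, so their counts are uncertain. Enzymes of glycolysis and its glucose transporters were called higher in 15 of 18 members, with a median of 0.90. Ldhb, a lactate dehydrogenase chain, had 111, 109, 112 and 120.2 CPM in HSC libraries, against 9.1, 8.12, 6.4, 8.98 and 7.47 CPM in B cell libraries (3.58 ± 0.15, adjusted p = 3.09e-11), and Hk1, a hexokinase, 106 to 126 CPM in HSC libraries, against 6.55 to 17.4 CPM in B cell libraries (3.15 ± 0.21, adjusted p = 5.65e-09). The member called lower in HSC was the transporter Slc2a1, at 26.3 to 37.3 CPM in HSC libraries and 99.3 to 126 CPM in B cell libraries (-2.14 ± 0.14, adjusted p = 3.1e-09), with 1875 CPM in young brain endothelial libraries, whose part in it was not tested. Nuclear genes of oxidative phosphorylation lay on the other side by small steps. Of 30, 18 were called lower in HSC and 1, Uqcrb (0.52 ± 0.13), higher, with a median of -0.35. On library totals alone 8 were called lower and 2 higher, so most calls were still lower, but their number rests on the scaling. Mitochondrial genes had 0 counts in the 9 libraries.

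Immediate-early genes, which cells switch on within minutes of a stimulus, were called higher in HSC in 14 of 22 members tested and lower in 5. Egr1 had 1018, 784, 1042 and 480.3 CPM in HSC libraries, against 26.2, 33.6, 28.6, 25.1 and 33.6 CPM in B cell libraries (4.60 ± 0.22, adjusted p = 1.33e-10), and Fos 1069, 898, 1000 and 494 CPM in HSC libraries, against 111, 102, 92.6, 97.8 and 95.9 CPM in B cell libraries (2.89 ± 0.19, adjusted p = 4.57e-09). Myc, the growth factor responsive oncogene, had 196, 176, 187 and 187 CPM in HSC libraries, against 22.2, 19.2, 24.6, 16.1 and 17 CPM in B cell libraries (3.00 ± 0.14, adjusted p = 1.13e-10). HSC library 3 had the highest sum over the list, at 9953 CPM, against 4120 to 6288 CPM in the other HSC libraries and 3349 to 4441 CPM in B cell libraries. The heat shock genes Hspa1a (-4.35 ± 0.47; -5.74 without HSC library 3) and Hspa1b (-4.79 ± 0.34), close copies of each other, were lower in HSC. In young brain endothelial libraries they averaged 1228 CPM for Hspa1a and 1124 CPM for Hspa1b, and the part of these in the difference was not tested.

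Of 29 interferon-stimulated genes tested, 17 were called higher in HSC and 2 lower, with a median of 0.82. Without B cell library 3, 4 were called lower. Oasl2, of the oligoadenylate synthase family, had 65.3, 76.2, 84.2 and 80.4 CPM in HSC libraries, against 4.37, 3.32, 4.43, 2.84 and 7.06 CPM in B cell libraries (3.87 ± 0.22, adjusted p = 8.73e-10). Ifih1, an RNA sensor, and Ifi44 had log2 fold changes of 3.19 ± 0.22 and 3.16 ± 0.33. Ifi27l2a lay on the other side, at 6.59, 18.7, 4.86 and 3.21 CPM in HSC libraries, against 245, 284, 233, 266 and 229 CPM in B cell libraries (-5.21 ± 0.29, adjusted p = 7.66e-10; -5.86 without HSC library 2).

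**Figure D3:**
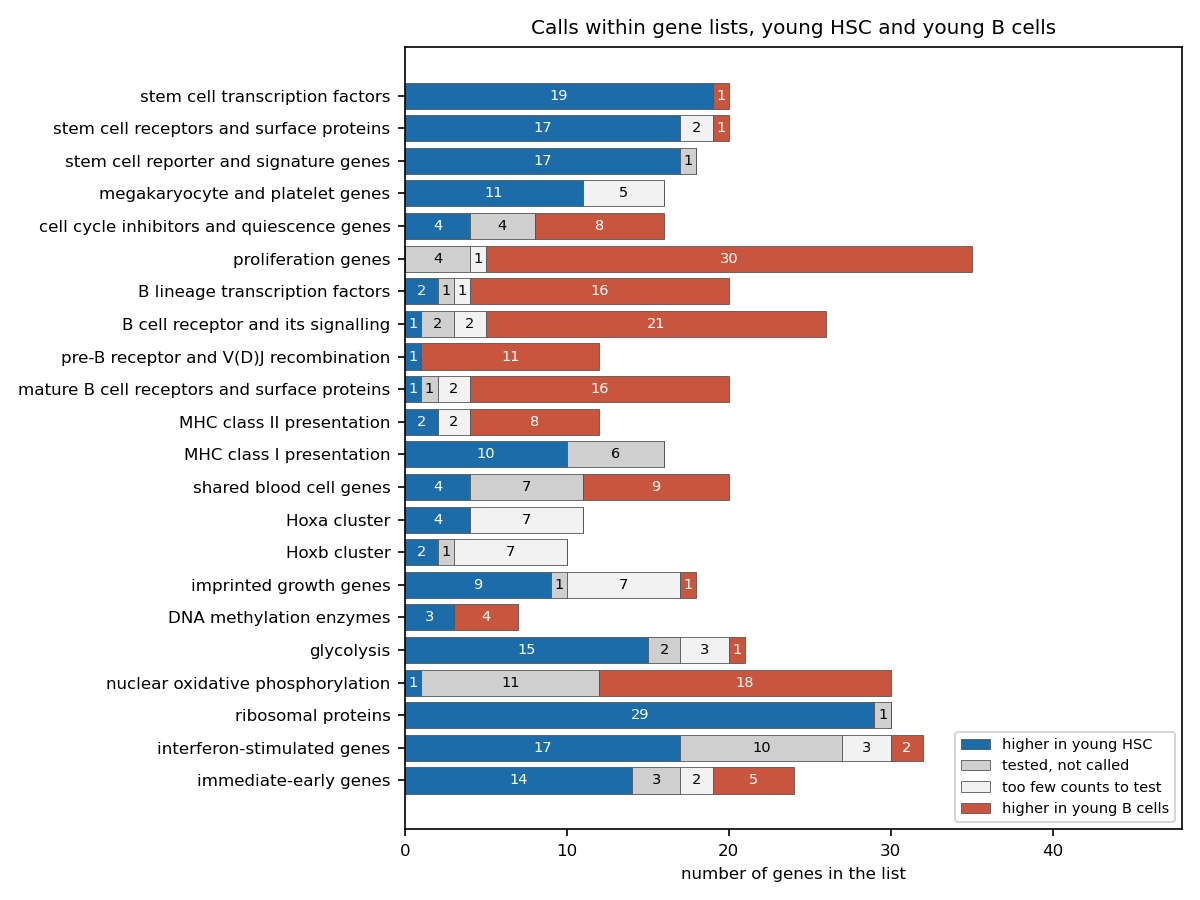
Number of genes in each of 22 gene lists (horizontal axis) that were called higher in young HSC (blue), tested and not called (grey), too low in counts to be tested (pale) or called higher in young B cells (red). Stem cell, megakaryocyte and ribosomal protein lists are mostly blue, and proliferation, B lineage and pre-B receptor lists mostly red; among all genes tested the shares are 30.8% and 30.0%.

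The genes of V(D)J recombination and of the pre-B receptor had the lowest median of the lists of B cell genes, -7.16, with 11 of 12 called lower in HSC. Rag1 (chr 2, 101638282 to 101649501), the recombinase, had 0, 1.49, 0 and 0.643 CPM in HSC libraries, against 315, 396, 409, 421 and 371 CPM in B cell libraries, a ratio of B cells to HSC of 849 (95% interval 290 to 4117) by counts. Its partner Rag2 had 0 to 1.49 CPM in HSC libraries, against 57.6 to 96.4 CPM in B cell libraries (-7.49 ± 0.40, adjusted p = 3.83e-10), and Dntt, the terminal transferase that adds bases at the joints, 0 to 4.32 CPM in HSC libraries, against 177 to 216 CPM in B cell libraries (-6.75 ± 0.32, adjusted p = 1.21e-10). Igll1 (chr 16, 16860671 to 16863985), the lambda5 chain, had 0.507, 2.99, 0 and 0.643 CPM in HSC libraries, against 687, 569.8, 791, 1124 and 691 CPM in B cell libraries (-9.89 ± 0.42, adjusted p = 3.8e-11). Vpreb1 had 4.05, 5.98, 1.08 and 3.86 CPM in HSC libraries, against 619.7, 621, 579, 663 and 601 CPM in B cell libraries (-7.63 ± 0.24, adjusted p = 3.16e-12), and Vpreb3 1.52, 14.9, 0 and 2.57 CPM in HSC libraries, against 1983, 2543, 2174, 2215 and 2135 CPM in B cell libraries (-9.27 ± 0.49, adjusted p = 3.71e-10). HSC library 2 held the highest HSC value of Rag1, Igll1, Vpreb1 and Vpreb3. Without it the log2 fold change was -11.03 for Igll1, -10.80 for Rag1, -8.52 for Rag2 and -10.88 for Vpreb3, and without HSC library 3 it was -7.48 for Dntt.

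Il7r, the receptor of the pro-B cell cytokine interleukin 7, had 0 to 7.47 CPM in HSC libraries, against 536 to 706 CPM in B cell libraries (-8.58 ± 0.42, adjusted p = 1.73e-10; -10.68 without HSC library 2). The ligase Lig4, which closes the breaks, differed by -5.56 ± 0.22 and Dclre1c, the hairpin opening nuclease Artemis, by -1.29 ± 0.27. Xrcc4, the partner of Lig4, was the member called higher in HSC (0.53 ± 0.22, adjusted p = 0.0477). RLE size factors, DESeq2, the replicate block and the fit without the filter did not call it. Without HSC library 1, 2 or 3 or B cell library 1, 2, 4 or 5 its adjusted p was 0.0655 to 0.129.

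The windows before the starts of 4 of these genes are shown because they hold an E-box, CAGGTG or its reverse complement CACCTG, the motif bound by E proteins such as the product of Tcf3. They are again RefSeq's on GRCm38.p6, 250 bases before the first listed start, with the motif in capitals.
Igll1, chr16:16863986-16864235, strand minus: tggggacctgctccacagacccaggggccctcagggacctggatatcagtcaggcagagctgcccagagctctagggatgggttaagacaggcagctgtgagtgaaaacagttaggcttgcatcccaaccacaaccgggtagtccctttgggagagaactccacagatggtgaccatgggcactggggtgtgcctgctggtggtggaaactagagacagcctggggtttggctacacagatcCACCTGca
Vpreb1, chr16:16869256-16869505, strand minus: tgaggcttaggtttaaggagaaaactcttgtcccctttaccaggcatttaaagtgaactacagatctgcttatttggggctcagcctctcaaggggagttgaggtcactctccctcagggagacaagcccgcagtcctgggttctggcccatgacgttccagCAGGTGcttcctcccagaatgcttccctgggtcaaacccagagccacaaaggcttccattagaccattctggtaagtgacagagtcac
Vpreb2, chr16:17980315-17980564, strand plus: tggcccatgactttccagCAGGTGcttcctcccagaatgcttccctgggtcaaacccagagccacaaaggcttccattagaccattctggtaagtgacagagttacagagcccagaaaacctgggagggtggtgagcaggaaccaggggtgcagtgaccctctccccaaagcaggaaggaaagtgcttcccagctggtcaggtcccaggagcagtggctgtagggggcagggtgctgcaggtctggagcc
Rag1, chr2:101649533-101649782, strand minus: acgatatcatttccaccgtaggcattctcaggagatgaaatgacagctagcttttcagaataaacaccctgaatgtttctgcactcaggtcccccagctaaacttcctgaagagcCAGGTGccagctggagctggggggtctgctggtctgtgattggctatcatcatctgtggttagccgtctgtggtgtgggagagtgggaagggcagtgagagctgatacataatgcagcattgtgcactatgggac
The motif was in 4 of the 12 windows of this list (33.3%), read over 300 bases on both strands. It was in 20% of all 27025 genes of the table and 2 of 16 stem cell factors. In the B cell receptor list it was in 11 of 19 windows (57.9%). Only 73.1% of the 26 genes of the B cell receptor list had an entry. That is under the limit for promoter comparisons given at the end, so its share is a description and is not compared. Other motifs were read too. That of RUNX factors was in 33.3% of the pre-B receptor and V(D)J list against 16.9% of the table, and that of ETS factors in 25% against 9.12%. The octamer was in 8.33% against 1.75%, the GATA motif in 8.33% against 11.4% and the EBF motif in 0% against 0.914%. The table includes genes that were not tested. Among genes tested, of which 72.3% had an entry, shares were 16.4% (E-box), 12.4% (RUNX), 19.9% (ETS), 1.35% (octamer), 6.32% (GATA) and 0.973% (EBF). The 4 printed windows hold 0 CpG (Vpreb2) to 3 CpG (Rag1). A match of 6 letters is common by its length and is given as a description. Vpreb1 and Vpreb2 are near-identical copies, so the counts of each are uncertain. Their windows share the stretch around the motif, so these matches are not separate observations.

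Transcription factors of the B lineage were called lower in HSC in 16 of 19 tested, 13 at least 4-fold, with a median of -3.90. Pax5 (chr 4, 44524757 to 44710487), which commits cells to the lineage, had 0.507, 4.48, 0 and 1.93 CPM in HSC libraries, against 959, 550.3, 857, 934 and 949 CPM in B cell libraries (-9.32 ± 0.40, adjusted p = 5.12e-11). Ebf1, its partner in early B cells, had 13.7, 26.9, 14 and 12.2 CPM in HSC libraries, against 2314, 2358, 2507, 2454 and 2262 CPM in B cell libraries (-7.41 ± 0.21, adjusted p = 1.62e-12). The coactivator Pou2af1 (-8.63 ± 0.42) and the factors Spib (-8.23 ± 0.40), Irf4 (-7.72 ± 0.25) and Bach2 (-5.99 ± 0.19) followed. Without HSC library 2 the values were -10.27 for Pax5, -10.60 for Pou2af1 and -10.21 for Spib. Tcf3, whose product binds E-boxes, had 41 to 54.6 CPM in HSC libraries, against 295 to 977 CPM in B cell libraries (-3.70 ± 0.34, adjusted p = 1.62e-07). Both Bcl11a (0.75 ± 0.17, adjusted p = 0.00146) and Mef2c (0.52 ± 0.10, adjusted p = 0.000438), which lymphoid and stem cells share, were called higher in HSC, and Spi1, the factor PU.1, did not pass, at 36.5 to 54 CPM in HSC libraries and 17.5 to 43.2 CPM in B cell libraries (0.36 ± 0.21, adjusted p = 0.163), although without B cell library 2 its adjusted p was 0.0448.

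The B cell receptor complex and its signalling genes were called lower in HSC in 21 of 24 tested, with a median of -4.09. Cd22, an inhibitory receptor, had no count in HSC libraries and 65.2, 42.1, 45.3, 37.8 and 38.6 CPM in B cell libraries, at least 104-fold higher in B cells. The adaptor Blnk had 0 to 6.73 CPM in HSC libraries, against 307 to 413 CPM in B cell libraries (-7.65 ± 0.38, adjusted p = 1.79e-10), and the kinase Blk 0 to 1.49 CPM in HSC libraries, against 77.8 to 96.9 CPM in B cell libraries (-8.14 ± 0.37, adjusted p = 9.96e-11). All counts of Blk in HSC came from library 2, and without it the value of Blnk was -8.97. Kinases further along were closer. Syk had a log2 fold change of -2.84 ± 0.19 and Lyn -2.61 ± 0.14, but Btk, at 97.3, 119.6, 83.2 and 75.2 CPM in HSC libraries and 114, 126, 97.5, 129 and 117 CPM in B cell libraries, had -0.55 ± 0.14, adjusted p = 0.00382, a call lost on library totals alone (-0.31, adjusted p = 0.0789), where 17 members rather than 21 were called lower. The phospholipase Plcg2 did not pass (-0.32 ± 0.14, adjusted p = 0.0523), although without HSC library 1 or B cell library 5 its adjusted p was 0.0202 to 0.0464. Cd81, a tetraspanin of the B cell surface, was called higher in HSC (0.39 ± 0.12, adjusted p = 0.0124), but not without the filter on low counts.

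Immunoglobulin genes took 0.0241% ± 0.00548 of counts in HSC libraries and 0.923% ± 0.0857 in B cell libraries (SD, n = 4 and 5). The shares did not overlap, and a two-sided exact permutation test over the 126 ways to assign the libraries gave p = 0.0159, the smallest it can give. Ighm, the mu heavy chain, had 41.7 ± 21.4 CPM in HSC libraries, against 4379 ± 391 CPM in B cell libraries (log2 fold change -6.96 ± 0.33, adjusted p = 1.21e-10), and Igkc, the kappa light chain, 65.2 ± 24.7 CPM in HSC libraries, against 2467 ± 354 CPM in B cell libraries (-5.48 ± 0.25, adjusted p = 8.45e-11). The delta chain Ighd, made with mu by maturing cells, averaged 1.2 CPM in HSC libraries and 95.7 CPM in B cell libraries. Switched heavy chains were present at low levels, with Ighg2b at 2.18 CPM in HSC libraries and 44.3 CPM in B cell libraries. Only 18 of 427 immunoglobulin genes had enough counts to be tested, and 17 of these were called lower in HSC; genes that passed the filter only through B cells had to differ, so this count is a description.

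In a list of receptors and surface proteins named for mature B cells, 16 of 18 tested were called lower in HSC, with a median of -2.87. Some of its members, Ly6d among them, mark earlier B cell stages, so the count does not describe mature B cells alone. Ly6d, an antigen of committed B progenitors, had 1.01, 12, 0.54 and 1.29 CPM in HSC libraries, against 906, 1163, 1237, 998 and 926 CPM in B cell libraries (-8.55 ± 0.44, adjusted p = 2.71e-10; -10.26 without HSC library 2), and Cd24a, the heat stable antigen of immature B cells, 248 to 333 CPM in HSC libraries, against 1541 to 1920 CPM in B cell libraries (-2.91 ± 0.14, adjusted p = 1.4e-10). Ms4a1, the CD20 antigen, had 0 to 3.74 CPM in HSC libraries, against 61 to 106 CPM in B cell libraries (-6.03 ± 0.41, adjusted p = 5.95e-09; -6.83 without HSC library 2). Markers of follicular B cells were low in the B cell libraries as well, at 1.97 to 5.83 CPM for Fcer2a (CD23), 1.48 to 6.23 CPM for Cr2 (CD21) and 1.82 to 4.43 CPM for Cxcr5, and none of these had enough counts to be tested. Cxcr4, the receptor that keeps cells in marrow, had 17.7, 13.5, 5.94 and 7.07 CPM in HSC libraries, against 198, 73.5, 177, 291 and 196 CPM in B cell libraries (-4.31 ± 0.41, adjusted p = 2.85e-07). Ltb, lymphotoxin beta, was called higher in HSC (2.01 ± 0.24, adjusted p = 3.8e-06), and without B cell library 2 2 members of the list were. Plasma cell genes were mixed, with 6 of 8 tested called lower in HSC, among them Jchain at 2.16 to 14.8 CPM in HSC libraries and 28.2 to 55.8 CPM in B cell libraries (-2.70 ± 0.36, adjusted p = 1.16e-05).

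Antigen presentation through class II differed between its parts. Of 10 genes tested, 8 were called lower in HSC and 2 higher. The invariant chain Cd74 had 53.2, 47.8, 63.7 and 56.6 CPM in HSC libraries, against 159.8, 191, 145, 148 and 170.2 CPM in B cell libraries (-1.78 ± 0.13, adjusted p = 1.15e-08), and the class II chain H2-Ab1 had -1.72 ± 0.14. The peptide loading chains H2-DMa and H2-DMb1 were called higher in HSC. H2-DMa had 162, 137, 218 and 149 CPM in HSC libraries, against 24, 18.5, 12.8, 19.4 and 9.97 CPM in B cell libraries (3.06 ± 0.21, adjusted p = 8.21e-09). Its other beta chain, H2-DMb2, had 0.54 to 8.22 CPM in HSC libraries, against 15.5 to 48.3 CPM in B cell libraries (-3.33 ± 0.48, adjusted p = 2e-05). As the 2 beta chain genes are close copies, their split is uncertain. Class I genes were called higher in HSC in 10 of 16, with a median of 0.43. None was called lower by edgeR or by DESeq2, and 0 were lower at an unadjusted p under 0.05, but 2 were called lower without B cell library 2 and 1 without HSC library 3. H2-K1 had 1536 to 1825 CPM in HSC libraries, against 679.7 to 873 CPM in B cell libraries (0.90 ± 0.10, adjusted p = 1.99e-06).

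Genes that blood cells share lay between. Of 20, 4 were called higher in HSC, 9 lower and 7 did not pass. Ptprc, the CD45 antigen, had 239 to 291 CPM in HSC libraries and 243 to 345 CPM in B cell libraries (-0.28 ± 0.12, adjusted p = 0.0503), although without HSC library 2 or 3 or B cell library 3 or 5 its adjusted p was 0.04 to 0.0461. DESeq2 and RLE size factors also called Ptprc lower in HSC. Runx1, a master factor of blood, was higher in HSC (0.97 ± 0.16, adjusted p = 8.53e-05), and the tetraspanin Cd53 lower, at 10.6 to 37.3 CPM in HSC libraries, against 754 to 1191 CPM in B cell libraries (-5.53 ± 0.30, adjusted p = 5.22e-10). The 5 genes with the narrowest interval around 0 and at least 100 CPM in both were Rbm25, Eif2s2, Rps27, Serbp1 and Bclaf1, which serve splicing, translation and RNA binding. On library totals alone Rps27, Serbp1 and Bclaf1 were called higher in HSC, so their likeness rests on the scaling. Rps27 was also called higher with the spread from 4 groups. Rbm25 had 1872, 2200, 1920 and 1969 CPM in HSC libraries and 1800, 2148, 1685, 1878 and 1874 CPM in B cell libraries (-0.15 ± 0.09).

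The 15 lowest log2 fold changes by the rule for naming ran from -9.10 to -11.16. Of these genes, 10 had 3 counts or fewer in HSC libraries, and 9 had no other young cell type with as high a mean. They include Igll1, Rag1, Cd22, Pax5 and Vpreb3 above. Cecr2, a chromatin protein, had 3.04, 2.24, 1.62 and 3.21 CPM in HSC libraries, against 1205, 957, 1446, 1551 and 1339 CPM in B cell libraries (-9.21 ± 0.27, adjusted p = 1.62e-12). Chst3, a sulfotransferase of proteoglycans, had 2 counts in all in HSC libraries and 195, 243, 230.0, 235 and 211 CPM in B cell libraries, a ratio of B cells to HSC of 745 (95% interval 206 to 6157). Slamf6, a SLAM receptor, had 0 to 0.747 CPM in HSC libraries, against 231 to 267 CPM in B cell libraries (-9.13 ± 0.26, adjusted p = 1.62e-12). Klra1, a lectin-like receptor of a family of near-identical genes, had no count in HSC libraries and 20.7 to 39.2 CPM in B cell libraries, and Steap4, a metalloreductase, no count in HSC libraries and 25.5 to 48.1 CPM in B cell libraries. They further include Rgs5, Sparcl1, Slco1c1 and Car4.

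These last 4 are known from blood vessels of the brain and their pericytes rather than from B cells. Slco1c1 (chr 6, 141524368 to 141570177), a thyroid hormone transporter of the blood-brain barrier, had no count in HSC libraries and 53.9, 69.4, 59.6, 44.4 and 67.3 CPM in B cell libraries, with 1181 CPM in the young brain endothelial libraries of the same study. Rgs5, a pericyte gene, had no count in HSC libraries and 148, 140.0, 121, 117 and 121 CPM in B cell libraries, with 4351 CPM in brain endothelium. All 19 brain endothelial and pericyte genes listed after these values were seen were called higher in B cells, and their sum was 325 to 400 CPM in HSC libraries, against 2155 to 2625 CPM in B cell libraries. Relative to young brain endothelium, their levels were 0% to 1.91% in HSC (median 0.0576%) and 2.02% to 12.3% in B cells (median 4.77%). Slco1c1, Car4, Rgs5 and Sparcl1 were at 0 in HSC, and none of the 19 was at 0 in B cells.

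The reverse was measured too. The 10 B cell markers stood in the young brain endothelial libraries at 1.49% to 16.6% of their B cell level, with a median of 4.53%. Among the other young cell types that median was highest in CD4 memory T cells, at 2.4%, and it was 0.138% in kidney endothelial cells. The stromal genes Cxcl12, at 0 to 1.49 CPM in HSC libraries and 74.2 to 96.5 CPM in B cell libraries, and Kitl, at 0 to 0.54 CPM in HSC libraries and 23.2 to 30.6 CPM in B cell libraries, were among the 19. Of the 11941 genes tested, 1084 had at least 5 times the B cell CPM in brain endothelium. Without them 694 genes were at least 4-fold higher in HSC and 783 at least 4-fold higher in B cells. The genes left out thus held 436 of those at least 4-fold higher in HSC and 135 of those higher in B cells. A low B cell level favours both this rule and a higher value in HSC, so the larger overlap with HSC is partly built in. The part of brain endothelial transcripts in the differences of any gene named above was not tested.

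**Figure D4:**
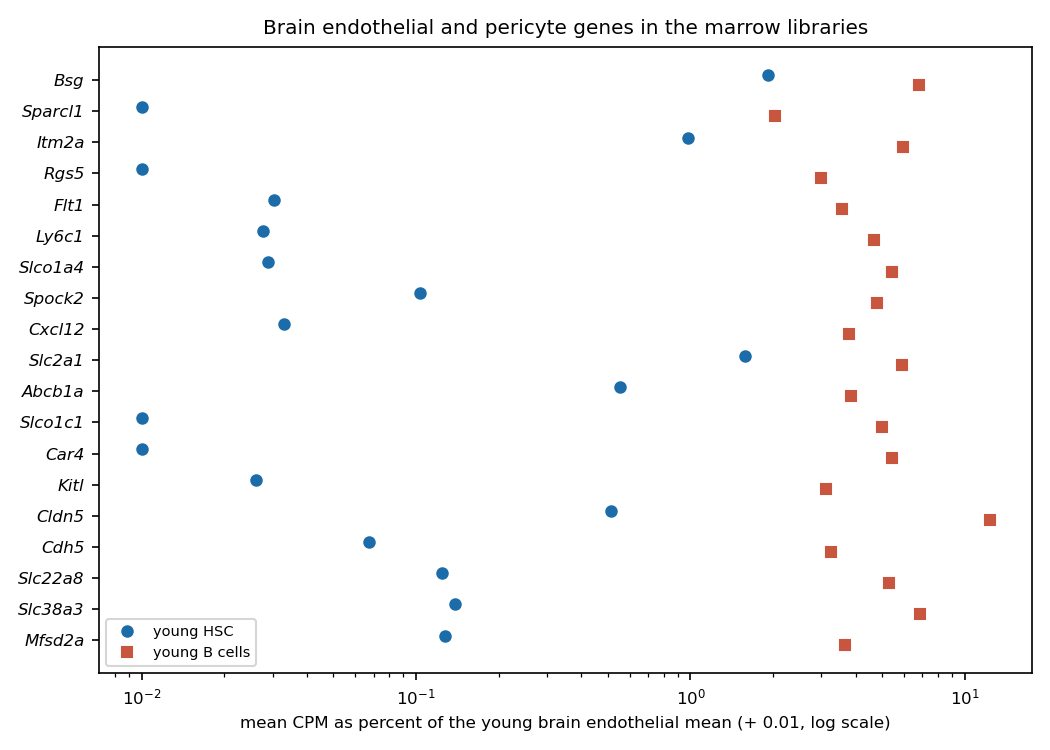
Mean CPM of 19 brain endothelial and pericyte genes in young HSC (blue circles) and young B cells (red squares), as a percent of the young brain endothelial mean (+ 0.01, log scale), with genes ordered by their endothelial level. B cells lie at 2.02% to 12.3%, and 4 genes with no count in HSC lie at the left edge.

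The comparison at 22 to 24 months was made with 7 HSC and 4 B cell libraries of its own, with totals from 1677125 to 16231229 counts in old HSC and 1688999 to 2310935 counts in old B cells. Other tags of old B cell library 1 name another cell type, and its title was followed. Of 12840 genes tested, 4235 (33.0%) were called higher in old HSC and 3884 (30.2%) higher in old B cells. Of 11750 genes tested at both ages, 5861 were called the same way, which is 80.8% of the young and 72.2% of the old calls, and 36 the opposite way. Without old B cell library 1, 5685 were called the same way. All 15 genes highest in young HSC and all 15 highest in young B cells were called the same way at the old age.

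Sizes were not always alike. Mecom had a log2 fold change of 5.24 ± 0.24 in old mice and Cd79b -4.70 ± 0.13. The granule genes Prtn3 (3.80 ± 0.25 in old, 6.20 ± 0.21 in young) and Csf3r, the receptor of the granulocyte growth factor (1.65 ± 0.21 in old, 5.54 ± 0.49 in young) had smaller values in old mice, and Ltb was 0.16 ± 0.18 in old (adjusted p = 0.448), with 2.01 ± 0.24 in young. Vwf had 3.74 ± 0.20 in old and 2.18 ± 0.20 in young, and Selp, an adhesion protein of platelets, 5.35 ± 0.23 in old and 2.88 ± 0.29 in young. Gnas, a G protein gene, was the list member with opposite calls, at -1.30 ± 0.28 in old (adjusted p = 0.000716) and 0.84 ± 0.31, adjusted p = 0.0279 in young, where the fit without the filter on low counts did not call it and without HSC library 1 or 2 or B cell library 3 or 5 its adjusted p was 0.0517 to 0.076. Whether the ages differ was not tested. Immunoglobulin genes took 0.0561% to 0.406% of counts in old HSC libraries, against 1.16% to 1.4% in old B cell libraries, and the highest share in a young HSC library was 0.0284%. The brain endothelial genes summed to 385 to 451 CPM in old HSC libraries and 2505 to 2642 CPM in old B cell libraries.

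**Figure D5:**
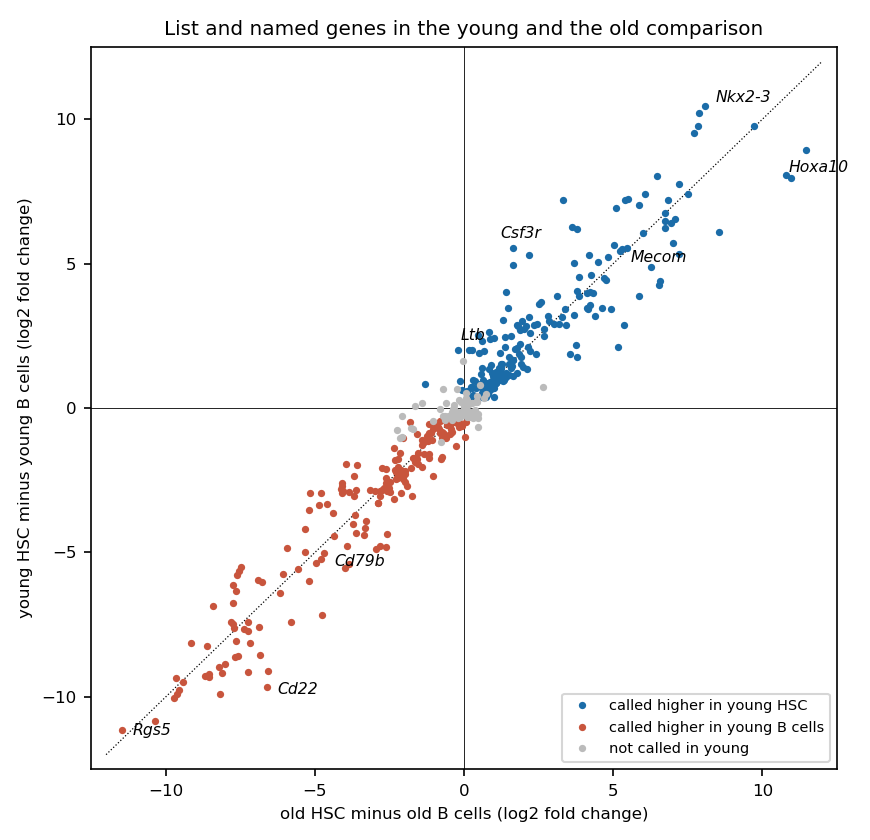
Log2 fold change of HSC minus B cells in young mice (vertical axis) against the same in old mice (horizontal axis) for 459 listed or named genes tested at both ages. Blue genes were called higher in young HSC, red ones higher in young B cells and grey ones not called in young mice; the dotted line marks equal values, and most genes lie along it, with Csf3r and Ltb above it.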

How the data were processed

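RNA of sorted cells was read as 3′ biased poly(A) libraries carrying an index (8 bp) and a molecular identifier or UMI (10 bp), per the labels' protocols. Per the submitters' processing notes, the authors used sabre 80faf94, STAR, featureCounts 2.0.1 and GRCm38.p6 (mm10) to make the deposited table of raw counts per gene, 55484 genes in 170 libraries. The sources used here do not say whether UMIs were collapsed or how strand was counted. Intervals of count ratios cover counting error only, while intervals of log2 fold changes also cover the spread between libraries. In the table, 26 gene names had become dates (0.176% of counts in the 9 young libraries), and 37 mitochondrial genes had no count in those libraries.

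The 9 young libraries were fitted together, and the 11 old ones apart, with edgeR 4.0.16 in R 4.3.3 (quasi-likelihood test, TMM, filterByExpr with a minimum count of 10 and total of 15), HSC against B cells with no covariate, and Benjamini-Hochberg adjustment over all genes tested. "At least 4-fold" needs the call and a log2 fold change of 2 or more. Named genes were the 15 highest on each side among called genes whose libraries did not overlap and whose higher mean reached 20 CPM, the members of the gene lists, and 5 genes alike in both; a few of these are not reported here. Alternatives were DESeq2 1.42.0, RLE size factors, no filter, a replicate block, each library left out, and spread from 4 groups. Library totals alone, and leaving out genes with at least 5 times the B cell CPM in brain endothelium, were added after seeing the data. The fit was tested on simulated data. Immunoglobulin shares were compared by an exact permutation test (scipy 1.17.1). Members, lists and rules were chosen with earlier results of these data known.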

Additional observations from a re-analysis of the deposited data

Results flagged for a closer look

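In 326 groups of 4 or 5 libraries, each holding 1 named gene, a library stood apart by Dixon's criterion 27 times, and the Y-linked sum of HSC library 1, 91.7 CPM against 1.62 to 5.14 CPM, did so too. Chance flags about 1 in 20 groups.

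HSC library 2 stood apart 6 times, each time as the highest HSC library. For B lineage genes it had 26.9 CPM of Ebf1 (12.2 to 14 CPM in the others), 12 CPM of Ly6d (0.54 to 1.29 CPM), 7.47 CPM of Il7r, 6.73 CPM of Spib and 1.49 CPM of Blk. It also had 212 CPM of Mki67, against 128 to 140 CPM in the other HSC libraries. HSC library 3 had 127 CPM of Cdkn1a, against 28.3 to 44.6 CPM, and 0.54 CPM of Kitl, against 0. HSC library 4 had 185 CPM of Ly6a, 37.3 CPM of Slc2a1, 5.14 CPM of Ighg2b and 3.21 CPM of Hspa1b.

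B cell library 2 stood apart for 4 abundant genes. It had 550 CPM of Pax5 (857 to 959 CPM in the others), 732 CPM of Rrm2 (1558 to 1817 CPM) and 516 CPM of Uhrf1 (888 to 985 CPM), and the highest Cd79a, at 208 CPM against 126 to 130 CPM. For genes near 0 it had 4.43 CPM of Muc13, 3.69 CPM of Hoxb5, 0.369 CPM each of Rab38 and Hoxa10, and 0 CPM of Hoxa7 (1.25 to 1.48 CPM). B cell library 1 had 1145 CPM of Bach2 (899 to 966 CPM), 65.2 CPM of Cd22 (37.8 to 45.3 CPM) and 0.364 CPM each of Lhcgr and Pglyrp2. B cell library 4 had 4.25 CPM of Itga2b and 0.473 CPM of Sdsl. A value under 0.5 CPM is 1 count here.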

How the results depend on the processing

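The calls were 3466 and 3377 with the replicate number as a block, and 1148 and 911 at 4-fold (HSC, then B cells); same-numbered libraries did not deviate together (correlations from -0.0153 to 0.1458), so the numbers were not taken as pairs. The block fit did not call Dnmt3a, Tet3, Sox18 or Xrcc4, and called E2f1 higher in HSC and Hba-a1, Hba-a2, Hbb-bt and Plcg2 lower. Without the filter, 1914 genes were at least 4-fold higher in HSC and 1627 in B cells, as more genes were tested. Without the genes at least 5 times higher in brain endothelium than in B cells there were 694 in HSC. With 1 library left out, the 4-fold counts were 1105 to 1201 in HSC and 843 to 992 in B cells. The other counts of calls stayed within 1.5 times under DESeq2, RLE size factors, the 4-group spread and library totals alone. Signs reversed for 4 uncalled genes: on library totals alone Rbm25 had 0.09, Eif2s2 0.19, Mcm3 0.18 and Mcm6 0.03, and with 1 library left out Mcm3 ranged from -0.14 to 0.07. Of 150 named genes called, 139 stayed called in the same direction under every setting with a value. Of 960 list counts, 79 moved by over 1.5 times; the cause was not tested. The immunoglobulin difference was -0.92 to -0.865 points with 1 library left out and -0.881 for constant genes alone.

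Limits: in simulated data of this design with 11640 genes, 57.1% of 2-fold and 98% of 4-fold changes were recovered, and 8.93% of calls were of unchanged genes. Small steps near the threshold are thus the least secure. Such shares vary with how many genes differ, and whether they hold for the real calls was not tested. A promoter entry was found for 75% of the genes at least 4-fold higher in HSC and 67.1% of those higher in B cells, under 80%, so a promoter comparison of these sets is void.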
